A study of Mus musculus with 30 samples.

Results

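Inflammatory hemophagocytes (iHPC) were compared with red pulp macrophages (RPM) sorted from the same 6 TLR7.1 spleens, across all expressed genes. The libraries were chosen by their labels, 6 of TLR7.1 iHPC and 6 of TLR7.1 RPM, which makes 12 of the 30 libraries in the series. The spleens came from female TLR7.1 mice aged 10 to 15 weeks, which overexpress Tlr7. The encoded receptor senses single-stranded RNA in endosomes. Both populations carry that allele and no treatment is named in the labels, so neither is a wild-type or resting state, and there is no iHPC library of a wild-type mouse to set beside them. iHPC were sorted as live CD45.2+ SiglecF- Ly6G- Ly6C- cells that were CD31hi, VCAMlow, F4/80low and CD11b+. RPM passed the same first gates and were CD31low, VCAMhi and F4/80+, with CD11b absent or intermediate. Each library held 500 sorted cells. Both libraries of a mouse share its spleen, its age and its collection day, so every comparison was made within the mouse.

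Red pulp macrophages are the resident phagocytes of the spleen that remove aged red blood cells. They degrade the heme, store the iron and return it to the blood through the exporter ferroportin, and the transcription factor Spi-C is required for their development. Hemophagocytes are phagocytes that have engulfed blood cells, and they are known from macrophage activation syndrome, an inflammatory state with loss of red cells and platelets. Both cell types thus take up blood cells, and the comparison asks in which genes they differ.

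The 6 iHPC libraries held 292507 to 1420486 counts and the 6 RPM libraries 268275 to 1257240. Levels are given as normalised CPM, that is, library-size-scaled counts after TMM normalisation, and the values of a group as its lowest, median and highest library (n = 6). Log2 fold changes are iHPC over RPM with their standard error, and a gene was called when edgeR's quasi-likelihood test with the mouse as a block gave a Benjamini-Hochberg adjusted p under 0.05. Reads per exonic base reached at most 1.19 to 1.55 in iHPC and 0.988 to 1.48 in RPM libraries. Genes under 500 exonic bases were left out of this maximum. Folds between very abundant genes may thus be compressed. Some libraries stood apart. The RPM library of mouse 24068 and both libraries of mouse 24380 were shallow, with under 500000 counts. Genes of basophils were abundant in 5 iHPC libraries and at or near 0 in that of mouse 24261, whose Cpa3 level was 0 CPM against 596, 818, 406, 351 and 355 CPM in the other 5 iHPC libraries. Where a called gene named below lost its call without 1 mouse, this is given with the gene. The closing section gives the number of calls when mice are left out.

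The transcripts behind the sort gates followed the gates. Pecam1, which encodes CD31, had 406, 563 and 624 CPM in iHPC, against 54.8, 128 and 189 CPM in RPM (log2 2.13 ± 0.244). Itgam, the gene of CD11b, had 143, 174 and 283 CPM in iHPC, against 0, 10.9 and 47.4 CPM in RPM (log2 3.81 ± 0.467). For both genes the groups of libraries did not overlap, and iHPC stood above RPM in all 6 mice. Vcam1 had 11.8, 23.4 and 54.9 CPM in iHPC, against 1221, 2286 and 4067 CPM in RPM (log2 -6.53 ± 0.223). Adgre1, which encodes F4/80, differed least of these 4 genes, with 386, 436 and 557 CPM in iHPC and 634, 850.4 and 1205 CPM in RPM (log2 -1.0 ± 0.147). Since cells were selected on these proteins, the values check the sort and are no finding. Ptprc, the gene of the CD45 used to gate all cells, had 2247, 2536 and 2991 CPM in iHPC, against 970.4, 1149 and 1731 CPM in RPM (log2 1.05 ± 0.155), again without overlap. Tlr7 had 936, 1166 and 1311 CPM in iHPC and 509, 1037 and 1610.3 CPM in RPM, with iHPC higher in 3 mice and lower in the other 3. Its log2 fold change of 0.18 was not called (adjusted p = 0.555, 95% interval -0.22 to 0.57). Pecam1 also marks endothelium. The endothelial genes Cdh5, Tek and Emcn had medians of 0 CPM in iHPC and 0 CPM in RPM, and the part of endothelial RNA in the Pecam1 level was not tested.

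**Figure D1:**
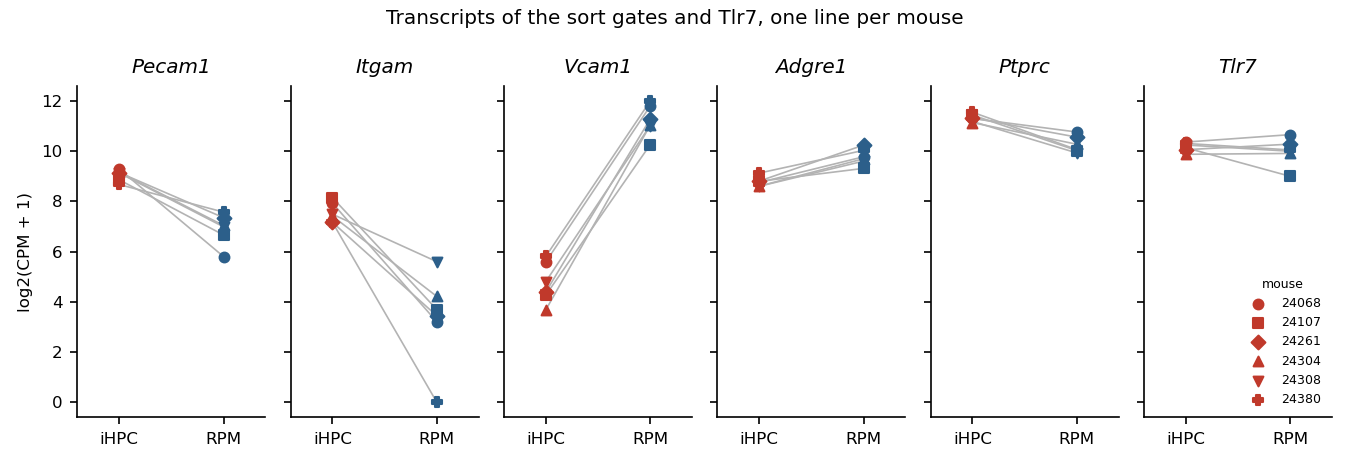
Normalised level, log2(CPM + 1), of the genes behind the sort gates and of Tlr7 in each library, with iHPC left and RPM right and 1 line per mouse (6 mice, marker shape gives the mouse). Pecam1, Itgam and Ptprc stand higher in iHPC on every line, Vcam1 and Adgre1 lower on every line, and the lines of Tlr7 cross.

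Genes of heme breakdown and iron export (Hmox1, Slc40a1), of the phosphatidylserine receptors TIM-4 and MERTK, of complement and of eicosanoid enzymes were among those lower in iHPC. Genes of patrolling monocytes (Cx3cr1, Nr4a1), of paired receptors, of leukocyte integrins and of NF-kB feedback (Nfkbiz, Nfkbia) were among those higher. Of 9079 genes tested, 1715 were called, 18.9% of them, with 951 higher in iHPC (10.5%) and 764 lower (8.42%). These shares are the background for every count of called list members given below. At least a 2-fold change was seen in 741 of the higher (8.16%) and 560 of the lower genes (6.17%). All 6 iHPC libraries stood above all 6 RPM libraries in 609 genes (6.71%) and below them in 512 (5.64%). A gene near 0 in a population was tested only where all libraries of the other held enough counts. Separation of such genes partly follows from that filter. The median log2 fold change over all genes tested was 0.10. All 6 mice shared the direction in 848 genes called higher and 690 called lower, 5 of 6 mice in 103 and 72, and fewer in 2 lower genes. Without mouse 24261, 677 genes were called higher and 579 lower. Of 1712 genes called with all 6 mice and tested again, 1210 kept the call and 0 were called in the opposite direction.

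**Figure D2:**
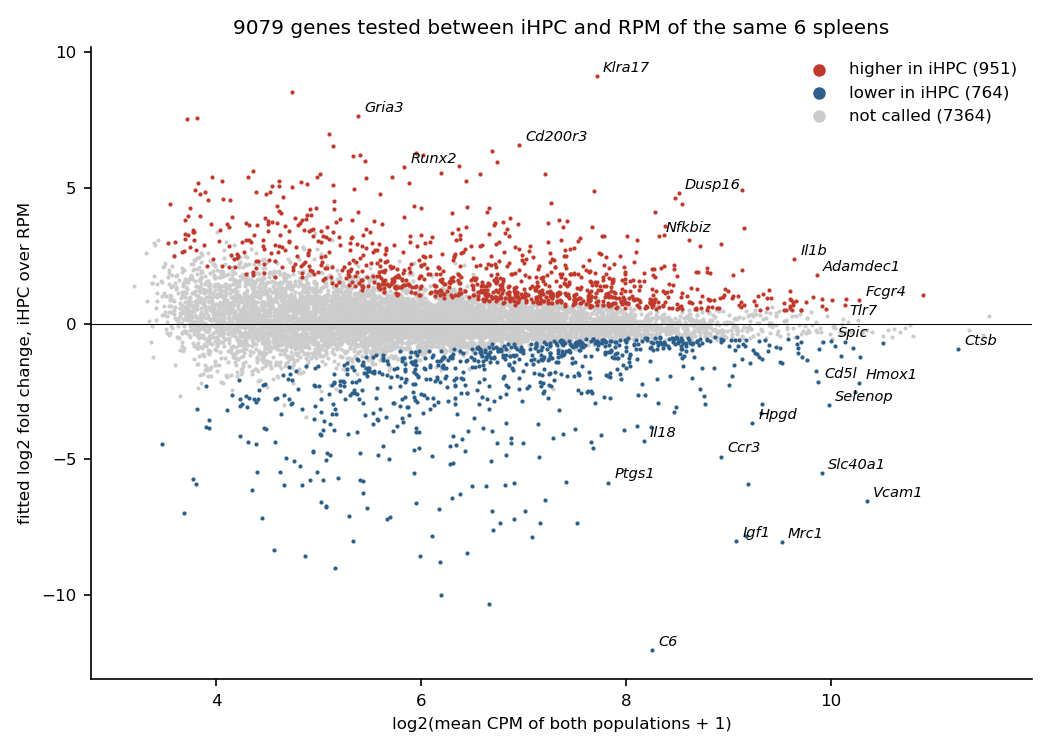
Fitted log2 fold change of iHPC over RPM against the mean level of both populations, log2(CPM + 1), for the 9079 genes tested, 1 point each. Called genes are red where iHPC are higher (951) and blue where they are lower (764), and for genes at 0 in a population, such as C6, the plotted fold depends on the prior count of the fit.

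**Figure D3:**
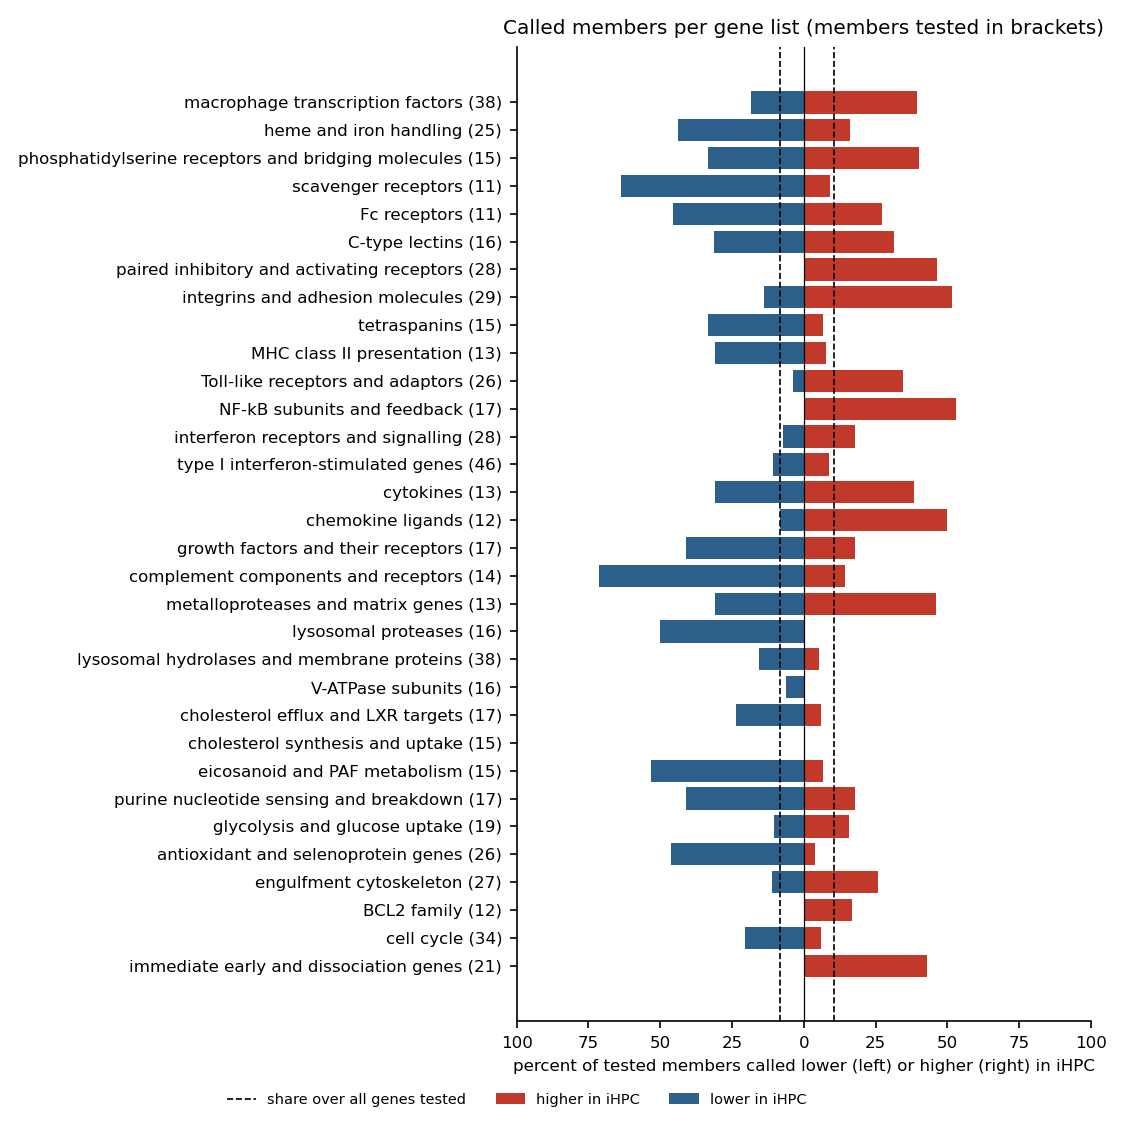
Percent of the tested members of each gene list that were called higher in iHPC (right) or lower (left), with the number tested in brackets. Dashed lines give the shares over all 9079 genes, 10.5% higher and 8.42% lower, and lists such as complement and scavenger receptors extend far to the left, paired receptors, NF-kB genes and adhesion molecules to the right.

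Transcription factors of macrophages split between the populations. Of 38 tested members of 46 listed, 15 were higher in iHPC, 7 lower and 16 not called. Runx2, a Runt-domain factor best known from bone, had 89.3, 112 and 125 CPM in iHPC, against 0, 0 and 12.7 CPM in RPM (log2 6.46 ± 0.834). Nr4a1, the orphan nuclear receptor that Ly6C-low monocytes need, had 192, 263 and 439 CPM in iHPC and 15.9, 42.2 and 142 CPM in RPM (log2 2.75 ± 0.411). Neither gene overlapped between the groups. The ETS repressor gene Etv3 (log2 2.59 ± 0.427), Klf4, a factor of monocyte development (log2 2.27 ± 0.509), and Runx1 (log2 1.91 ± 0.270) were higher as well. So were Spi1, the gene of PU.1 that specifies myeloid cells (log2 0.87 ± 0.167), and Pparg, a lipid-sensing nuclear receptor (log2 1.19 ± 0.251). Bach1, the repressor of Hmox1 that heme inactivates, had 99.1, 106 and 138 CPM in iHPC against 14.3, 21.6 and 73.9 CPM in RPM (log2 2.04 ± 0.354), and Nfe2l2, the gene of the antioxidant activator NRF2, had 437, 569 and 655 CPM in iHPC against 107, 170.4 and 219 CPM in RPM (log2 1.75 ± 0.182). Both stood apart without overlap.

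On the other side, Maf, a leucine zipper factor of macrophages, was lower in iHPC (log2 -1.92 ± 0.261), as were Rxra, the partner of many nuclear receptors (log2 -2.97 ± 0.349), and Irf8, a lineage factor of monocytes and dendritic cells, with 76.0, 93.8 and 135 CPM in iHPC against 310.2, 447 and 702 CPM in RPM (log2 -2.23 ± 0.187). Tfec, a MITF-family factor, was 258 times lower by pooled counts (70.9 to 2136), where the interval covers counting error only. Spic, the gene of Spi-C, changed least among the called lower members. It had 669, 757 and 1036 CPM in iHPC, against 1059, 1191 and 1659.6 CPM in RPM (log2 -0.65 ± 0.149, adjusted p = 0.00939), so its transcript was abundant in both populations although the groups did not overlap. Nr1h3, the gene of the liver X receptor alpha, and Id2 were abundant and not called, with medians of 497 and 731 CPM in iHPC and 519 and 883 CPM in RPM.

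Heme and iron genes were more often lower than higher in iHPC. Of 25 tested members, 11 were lower, 4 higher and 10 not called, with a median log2 fold change of -0.59 against 0.10 over all genes. The exporter gene Slc40a1 (ferroportin) had 4.84, 46.3 and 109.8 CPM in iHPC, against 1385, 1711 and 2473 CPM in RPM (log2 -5.57 ± 0.432). The transcript was present in every iHPC library, and the groups lay far apart. Trf, the gene of the plasma iron carrier transferrin, was also lower, with 0.95, 3.38 and 7.32 CPM in iHPC and 90.6, 175 and 458 CPM in RPM (log2 -5.92 ± 0.374). Genes of the heme pathway were lower by smaller steps. Hmox1, which opens the heme ring, had 300.4, 436 and 593 CPM in iHPC against 1378, 1683 and 3323 CPM in RPM (log2 -2.18 ± 0.217). Slc48a1, which moves heme out of the phagolysosome, was lower by a similar amount (log2 -2.0 ± 0.203), and the biliverdin reductase genes Blvrb (log2 -1.43 ± 0.199) and Blvra (log2 -0.59 ± 0.137) were lower by less. The receptors for hemoglobin and hemopexin complexes, Cd163 and Lrp1, were lower too. Lrp1 had 33.0, 44.0 and 117 CPM in iHPC, against 89.0, 293 and 467 CPM in RPM (log2 -2.44 ± 0.267). Cd163 held 1 count in all iHPC libraries together, against 49.3, 118 and 214 CPM in RPM, and was 713 times lower by pooled counts (127 to 28225).

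Some steps of iron handling ran the other way. Flvcr1, which exports heme across the plasma membrane, had 243, 269.9 and 344 CPM in iHPC, against 16.7, 49.6 and 97.3 CPM in RPM (log2 2.50 ± 0.326), with no overlap. Cp, the ferroxidase ceruloplasmin that works with ferroportin, had 311, 393 and 509 CPM in iHPC and 82.7, 130.3 and 319.6 CPM in RPM (log2 1.56 ± 0.235). iHPC thus held more transcript of a heme exporter and less of the iron exporter. Tfrc, the transferrin receptor, was lower in iHPC, with 44.4, 73.4 and 152 CPM in iHPC against 236, 306 and 436 CPM in RPM (log2 -2.01 ± 0.296), but it is also high in erythroblasts, whose markers were lower in the same libraries (given below). The ferritin genes did not pass the test. Fth1 had medians of 1233 CPM in iHPC and 1617 CPM in RPM (log2 -0.47, 95% interval -0.88 to -0.06, adjusted p = 0.103). Ftl1 had medians of 104 CPM in iHPC and 143 CPM in RPM (log2 -0.51, 95% interval -1.15 to 0.12). Slc11a1, the iron and manganese transporter NRAMP1 of phagosomes, was likewise not called (log2 0.09, 95% interval -0.26 to 0.45).

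Receptors for dying cells split between the populations. Dying cells expose phosphatidylserine, and of 15 tested receptors and bridging molecules 6 were higher in iHPC and 5 lower. Timd4, the gene of TIM-4, held 0 counts in all iHPC libraries and 52.0, 156 and 218 CPM in RPM, which makes it at least 332-fold lower in iHPC, where a population without counts was taken as having 3 in its 6 libraries together. Stab2, the gene of a clearance receptor for phosphatidylserine and hyaluronan, had 0, 0 and 8.70 CPM in iHPC and 125, 219.7 and 522 CPM in RPM (log2 -7.77 ± 0.557). The kinase receptors that bind phosphatidylserine through Gas6 and protein S were also lower. Mertk had 25.1, 35.5 and 45.6 CPM in iHPC, against 256, 514 and 786 CPM in RPM (log2 -3.76 ± 0.212), and Axl had 74.9, 148 and 211 CPM in iHPC against 660.5, 1067 and 1644 CPM in RPM (log2 -2.96 ± 0.273). All 4 genes separated the groups completely, which for Timd4 and Stab2, near 0 in iHPC, partly follows from the filter on low counts. In the other direction, Cd300lf, which binds phosphatidylserine and ceramide, had 327, 438 and 506 CPM in iHPC, against 101.3, 187 and 252 CPM in RPM (log2 1.28 ± 0.225). Its relative Cd300lb (log2 3.71 ± 0.720), Havcr2, the gene of TIM-3 (log2 3.77 ± 0.641), and Anxa1, an annexin that binds phosphatidylserine (log2 4.67 ± 0.733), were higher too. Anxa1 varied widely, with 52.3, 183 and 387 CPM in iHPC and 0, 4.23 and 31.0 CPM in RPM.

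Scavenger receptors were mostly lower in iHPC. Of 11 tested members 7 were lower in iHPC and 1, Cxcl16, higher, a call that was lost without mouse 24068, 24261, 24304 or 24308. Mrc1, the mannose receptor, had 0, 2.23 and 54.9 CPM in iHPC, against 717, 1402 and 2069 CPM in RPM (log2 -8.61 ± 0.619). Marco, a receptor for bacteria and particles, had 0, 0 and 14.6 CPM in iHPC, against 54.8, 235 and 261 CPM in RPM (log2 -8.02 ± 0.741). The highest iHPC value of both genes came from mouse 24380, and the other 5 iHPC libraries held at most 8.55 CPM of Mrc1. Cd5l, a secreted scavenger protein of tissue macrophages, was lower but still present, with 184, 323 and 604 CPM in iHPC and 988, 1527 and 2141 CPM in RPM (log2 -2.15 ± 0.204). Cd68 and Cd36 were not called, with log2 fold changes of -0.18 (95% interval -0.56 to 0.21) and 0.01 (-0.70 to 0.72).

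Fc receptors changed in composition. These receptors bind antibody on coated cells. Fcgr4, an activating receptor for IgG, had 1275, 1562 and 2098 CPM in iHPC, against 612, 871 and 1108 CPM in RPM (log2 0.87 ± 0.140), at a read density near the ceiling noted above. Fcrl5, an inhibitory Fc-receptor-like gene best known from B cells, had 498, 699 and 782 CPM in iHPC, against 17.6, 21.6 and 49.3 CPM in RPM (log2 4.63 ± 0.241). The groups did not overlap. Its median level in Ly6C-high monocytes of the same mice was 1.90 CPM, and the source of its transcripts in iHPC was not tested. In contrast Fcgr3, the low-affinity activating receptor CD16, had 124, 199 and 391 CPM in iHPC, against 544, 838 and 1054 CPM in RPM (log2 -1.94 ± 0.239). Fcgrt, the neonatal Fc receptor that recycles IgG, had 36.6, 64.6 and 101.1 CPM in iHPC and 413, 511 and 805 CPM in RPM (log2 -2.94 ± 0.250). The shared signalling chain Fcer1g, also near that ceiling, was not called (log2 -0.25, 95% interval -0.66 to 0.16). In the list as a whole 3 of 11 tested members were higher and 5 lower, where 10.5% of all genes tested were higher and 8.42% lower. Of the lower ones, 2 (Fcmr and Fcrla) are genes of B cells, and the call of Fcrla was lost without any one mouse but 24068.

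Paired receptors, families of related inhibitory and activating receptors on myeloid cells, were higher in iHPC where they were called. Of 28 tested members, 13 were higher in iHPC, 0 lower and 15 not called, with a median log2 fold change of 0.65. At an unadjusted p under 0.05, 1 member was lower by edgeR, and DESeq2 and limma called 0 lower. Klra17, a Ly49-family lectin gene, had 201, 437 and 574 CPM in iHPC, against 0, 0 and 1.59 CPM in RPM. RPM libraries held 3 counts of it in all, and it was 655 times higher by pooled counts (224 to 3176). The iHPC library of mouse 24261, which lacked basophil genes, held 346 CPM of it. Cd200r3, a DAP12-coupled activating receptor known from basophils and mast cells, had 132, 253 and 343 CPM in iHPC, against 0, 0.551 and 13.7 CPM in RPM (log2 6.71 ± 0.551). Here too that library had transcript, 132 CPM, the lowest level of the 6. The CD300 family contributed Cd300e, with 705, 806 and 919 CPM in iHPC and 46.3, 274 and 309 CPM in RPM (log2 1.85 ± 0.299), and Cd300ld, with 527, 552 and 639.7 CPM in iHPC and 92.5, 132 and 225 CPM in RPM (log2 2.03 ± 0.195). The inhibitory receptors Cd200r1 (log2 1.20 ± 0.167) and Siglece (log2 0.80 ± 0.167) were higher by less. Sirpa, the receptor for the anti-engulfment signal CD47, was not called (log2 -0.32, 95% interval -0.70 to 0.06). Related copies in the Klra, Cd200r and Cd300 families may share reads, and how such reads were assigned is not given in the sources used here.

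C-type lectins divided evenly, 5 higher and 5 lower of 16 tested, where 10.5% of all genes tested were higher and 8.42% lower. Clec4n, the gene of the fungal receptor dectin-2, had 92.3, 114 and 141 CPM in iHPC, against 734, 1173 and 1519.9 CPM in RPM (log2 -3.30 ± 0.162), while Clec4a3 in the same receptor family had 1045, 1247 and 1495 CPM in iHPC against 562, 673 and 854 CPM in RPM (log2 0.90 ± 0.140). Klrb1b, an NKR-P1 receptor gene, had 36.6, 153 and 224 CPM in iHPC and 0, 0 and 15.4 CPM in RPM (log2 5.83 ± 0.652). Clec12a, an inhibitory receptor for uric acid crystals, was abundant and not called, with medians of 765 CPM in iHPC and 732 CPM in RPM. In the MS4A family of membrane proteins, 4 of 7 tested members were higher, namely Ms4a6b (log2 3.86 ± 0.493), Ms4a4c (log2 3.22 ± 0.426), Ms4a6d (log2 1.97 ± 0.225) and Ms4a6c (log2 1.26 ± 0.175), copies that are alike in sequence. The lower member, Ms4a1, encodes the B cell protein CD20. Tetraspanins, which organise membrane domains, were lower in 5 of 15 cases, among them Cd82 (log2 -1.63 ± 0.199) and Cd81 (log2 -0.85 ± 0.164), and Cd53 was higher (log2 0.67 ± 0.148).

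Adhesion molecules were higher in iHPC more often than lower. Of 29 tested genes 15 were higher and 4 lower, where 10.5% of all genes tested were higher and 8.42% lower. In 14 all iHPC libraries stood above all RPM libraries, against 6.71% of all genes. Both counts of higher genes include Itgam and Pecam1, on which the cells were sorted. The leukocyte integrin genes Itgax (CD11c) and Itgal (LFA-1) were among them as well. Itgax had 530.3, 579 and 743 CPM in iHPC, against 28.2, 60.8 and 112 CPM in RPM (log2 3.28 ± 0.229), and Itgal had 351, 439.6 and 692 CPM in iHPC against 27.4, 80.2 and 118 CPM in RPM (log2 2.66 ± 0.232). The laminin-binding integrin gene Itga6 had 51.3, 67.7 and 85.5 CPM in iHPC, against 0, 0 and 2.21 CPM in RPM and was 149 times higher by pooled counts (41.0 to 1236). Junction proteins were among the higher genes. Esam had 42.2, 88.2 and 142 CPM in iHPC, against 0, 2.82 and 11 CPM in RPM (log2 4.90 ± 0.673), and F11r, which encodes JAM-A, had 277, 360.4 and 666 CPM in iHPC against 33.4, 84.7 and 103 CPM in RPM (log2 2.51 ± 0.275). Negr1, an adhesion molecule best known from neurons, had 85.9, 157 and 194 CPM in iHPC, with RPM at 0 in most libraries and 54.8 CPM in the highest (log2 7.32 ± 1.11). Itgad, the CD11d integrin gene of red pulp macrophages, was not called, with medians of 361 CPM in iHPC and 433 CPM in RPM (95% interval of log2 -0.81 to 0.21). Cd44, a hyaluronan receptor, was lower in iHPC (log2 -0.91 ± 0.187).

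**Figure D4:**
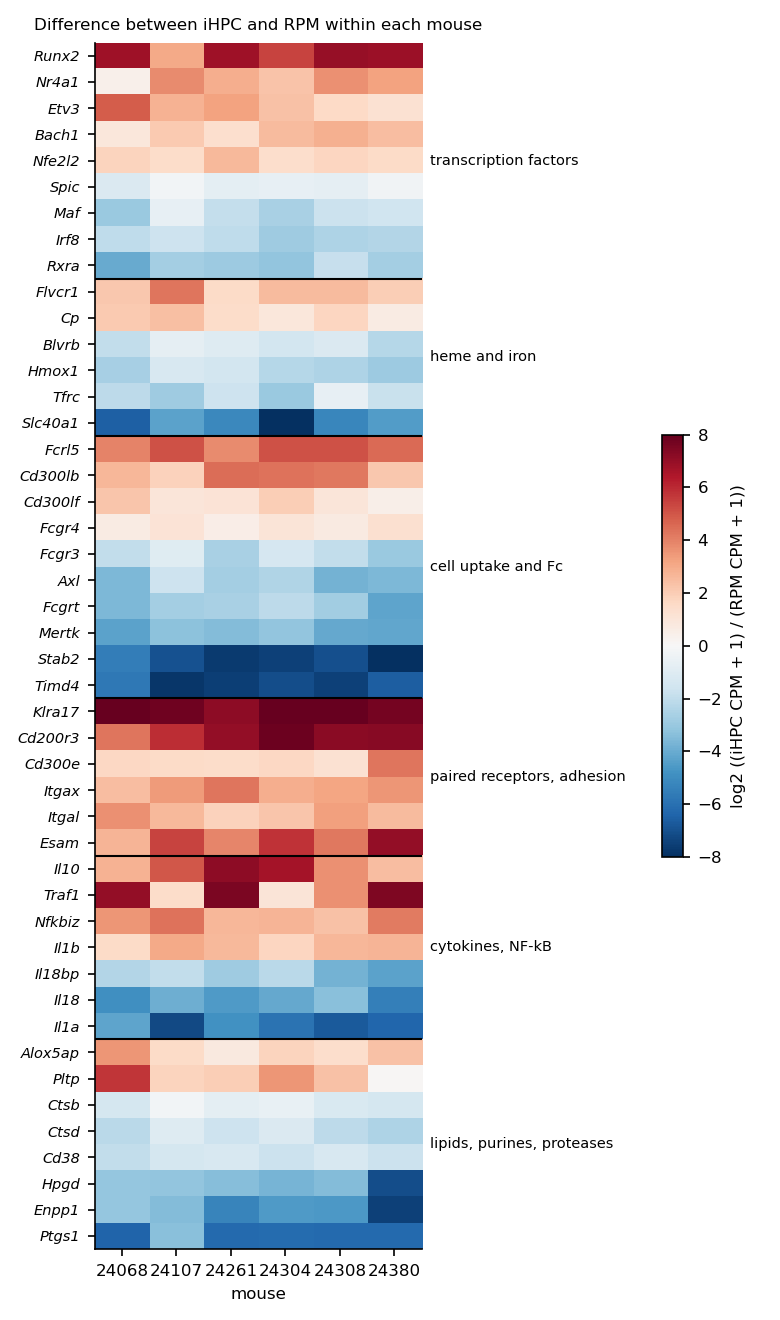
Difference between iHPC and RPM within each of the 6 mice, as log2 of the ratio of CPM + 1, for called genes named in the text, grouped by role. Red is higher in iHPC and blue lower, and colours end at 8 in either direction. Rows hold 1 colour across the mice, with a wide spread in genes such as Traf1 and Pltp.

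Toll-like receptors signal through MyD88 and IRAK kinases to NF-kB, which in turn induces its own inhibitors. Of 26 tested receptors and adaptors 9 were higher in iHPC and 1 lower, although Tlr7 itself was not called. Irak3, a brake on this pathway, had 240.4, 304 and 454 CPM in iHPC, against 67.3, 77.0 and 107 CPM in RPM (log2 1.88 ± 0.217). Cd180, a TLR4-like receptor, had 176, 227 and 304 CPM in iHPC against 38.3, 72.6 and 103 CPM in RPM (log2 1.79 ± 0.257). Tlr1 (log2 1.38 ± 0.290), the signalling adaptor gene Myd88 (log2 1.11 ± 0.265) and the PI3-kinase adaptor gene Pik3ap1 (log2 1.04 ± 0.143) were higher too. Cd14, the co-receptor for lipopolysaccharide, was the lower member, with 85.0, 128 and 202 CPM in iHPC and 206, 348 and 381 CPM in RPM (log2 -1.23 ± 0.232). Unc93b1, the chaperone that TLR7 needs to reach endosomes, was not called (log2 -0.07, 95% interval -0.46 to 0.33).

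Among NF-kB subunits and feedback genes 9 of 17 tested were higher and 0 lower, with a median log2 fold change of 1.19. No member was lower at an unadjusted p under 0.05 by edgeR, nor called lower by DESeq2 or limma. Nfkbiz, a nuclear IkB protein that NF-kB induces, had 449.6, 561 and 779.9 CPM in iHPC, against 31.0, 61.1 and 103 CPM in RPM (log2 3.26 ± 0.284). Nfkbia, the gene of the inhibitor IkB alpha, had 627, 660.2 and 967 CPM in iHPC, against 245, 302 and 404 CPM in RPM (log2 1.19 ± 0.140). Both rose in all 6 mice without overlap. Traf1, a signalling adaptor of TNF receptors, had 125, 127 and 181 CPM in iHPC but an uneven RPM group of 0, 4.41 and 60.3 CPM (log2 4.31 ± 0.990). Rel, the c-Rel subunit gene (log2 1.74 ± 0.401), Tnip1, a partner of A20 (log2 1.24 ± 0.241), Nfkbie, the gene of IkB epsilon (log2 1.37 ± 0.337), and Bcl3, an atypical IkB (log2 1.05 ± 0.300), rose as well. The call of Nfkbie was lost without mouse 24261, and that of Bcl3 without mouse 24107, 24261, 24304 or 24308. The subunit gene Rela was not called (log2 0.09, 95% interval -0.62 to 0.80).

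The promoters of 4 of the higher feedback genes are shown because they hold the NF-kB consensus, a site of 10 bases, in the window from 250 bases before to 50 bases after the start of transcription. Sequences are RefSeq promoters of build GRCm38.p6, in the direction of the gene, with matches to the consensus on either strand in capitals.
Nfkbia, chr12:55492598-55492897, minus strand: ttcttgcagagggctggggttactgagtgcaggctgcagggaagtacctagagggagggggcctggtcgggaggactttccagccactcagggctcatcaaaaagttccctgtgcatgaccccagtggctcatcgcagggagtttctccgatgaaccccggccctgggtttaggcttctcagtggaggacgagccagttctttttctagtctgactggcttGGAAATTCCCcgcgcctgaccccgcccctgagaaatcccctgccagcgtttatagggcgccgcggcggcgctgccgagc
Nfkbie, chr17:45555450-45555749, plus strand: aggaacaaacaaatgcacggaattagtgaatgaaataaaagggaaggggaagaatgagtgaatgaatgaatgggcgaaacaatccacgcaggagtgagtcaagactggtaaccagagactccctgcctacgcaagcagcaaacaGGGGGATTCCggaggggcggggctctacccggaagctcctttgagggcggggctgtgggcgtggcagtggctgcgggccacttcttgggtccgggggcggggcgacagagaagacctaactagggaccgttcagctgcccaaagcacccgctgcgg
Bcl3, chr7:19822706-19823005, minus strand: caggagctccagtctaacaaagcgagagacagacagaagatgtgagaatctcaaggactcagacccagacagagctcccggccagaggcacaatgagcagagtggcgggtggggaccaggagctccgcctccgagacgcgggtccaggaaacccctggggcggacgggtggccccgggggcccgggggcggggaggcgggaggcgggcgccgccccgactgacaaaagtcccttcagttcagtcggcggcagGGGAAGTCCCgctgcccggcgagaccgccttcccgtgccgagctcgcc
Rel, chr11:23770920-23771219, minus strand, with 2 overlapping matches: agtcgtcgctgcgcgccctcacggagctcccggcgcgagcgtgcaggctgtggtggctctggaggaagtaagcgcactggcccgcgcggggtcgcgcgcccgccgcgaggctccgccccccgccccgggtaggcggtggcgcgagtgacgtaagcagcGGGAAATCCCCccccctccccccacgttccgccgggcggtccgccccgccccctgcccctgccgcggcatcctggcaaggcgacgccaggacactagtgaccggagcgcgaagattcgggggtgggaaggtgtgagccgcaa
Of the higher members with a window in the table, 5 of 7 held the consensus (71.4%), as did 3 of 7 members that were not called (42.9%), against 9.55% of the 27025 genes with a window. A match is a description of the sequence, and binding was not measured here.

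Cytokine genes differed in kind. Of 13 tested, 5 were higher in iHPC and 4 lower. Il1b, the interleukin 1 beta gene, had 1017, 1243 and 2028 CPM in iHPC, against 171, 271 and 359 CPM in RPM (log2 2.38 ± 0.211). Il10, an anti-inflammatory cytokine gene, had 100.4, 162 and 214 CPM in iHPC, against 0, 8.60 and 30.1 CPM in RPM (log2 4.49 ± 0.649). Il18, of the interleukin 1 family, had 14.6, 24.3 and 48.0 CPM in iHPC, against 389, 509.7 and 748 CPM in RPM (log2 -4.33 ± 0.258), and Il1a, the interleukin 1 alpha gene, had 0, 0 and 4.35 CPM in iHPC against 28.2, 89.2 and 146 CPM in RPM (log2 -7.42 ± 0.841). Il18bp, the decoy that neutralises IL-18, fell along with its ligand gene (log2 -2.76 ± 0.283), as did Il15, which sustains natural killer cells (log2 -1.51 ± 0.327). Ebi3, a subunit shared by several interleukins, was higher (log2 1.81 ± 0.390). Il1rn, the gene of the interleukin 1 receptor antagonist, and Tnf were higher by a log2 of 3.07 ± 0.785 and 3.43 ± 0.977, and lost their calls without mouse 24308 for Il1rn and without mouse 24107, 24261 or 24308 for Tnf. Il6 stood outside the test because 1 library was low, with 10.5, 98.5 and 142 CPM in iHPC and 0 counts in RPM (at least 119-fold higher). Its lowest value was that of mouse 24261.

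Of 12 chemokine genes, 6 were higher in iHPC and 1 lower. Ccl4, an inflammatory chemokine gene, had 260.4, 368 and 555 CPM in iHPC, against 32.4, 116 and 273 CPM in RPM (log2 1.85 ± 0.282). Ccl3, its close relative, had 181, 313 and 507 CPM in iHPC against 0, 14.6 and 391 CPM in RPM (log2 4.54 ± 0.907), where the RPM library of mouse 24107 reached 391 CPM and overlapped with iHPC. Ccl9 was higher (log2 3.27 ± 0.612), and Ccl8, a monocyte chemoattractant, was 119 times lower by pooled counts (32.5 to 993). Among receptors for chemoattractants, Cx3cr1, the fractalkine receptor of patrolling monocytes, had 142, 191 and 329.5 CPM in iHPC, against 0, 0 and 9.54 CPM in RPM (log2 7.12 ± 0.745). Ccr3, the eotaxin receptor, had 0, 32.9 and 49.8 CPM in iHPC, against 663, 906 and 1308 CPM in RPM (log2 -4.97 ± 0.363). Eosinophils also express this gene. The eosinophil genes Epx and Siglecf had medians of 0 and 0 CPM in the same RPM libraries, and the part of eosinophils in the Ccr3 level was not tested. Fpr2, a formyl peptide receptor, was higher in iHPC (log2 1.38 ± 0.175).

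Of 17 genes of growth factors and their receptors, 7 were lower in iHPC and 3 higher. Igf1, insulin-like growth factor 1, had 0, 4.08 and 5.70 CPM in iHPC, against 773, 1107 and 1364 CPM in RPM (log2 -8.06 ± 0.275). Fgf1, a fibroblast growth factor, held 0 counts in iHPC and 29.4, 61.3 and 75.7 CPM in RPM, at least 98.2-fold lower. Csf1r, the receptor on which macrophage survival depends, had 403, 426 and 641 CPM in iHPC, against 779, 1186 and 2086 CPM in RPM (log2 -1.35 ± 0.149), still a high level. Tgfbr1, a TGF-beta receptor chain, had 349.8, 456 and 498 CPM in iHPC, against 75.7, 99.9 and 227 CPM in RPM (log2 1.88 ± 0.226), and Tgfbi, a matrix protein that TGF-beta induces, had 547, 688 and 989 CPM in iHPC against 139, 189.6 and 230.5 CPM in RPM (log2 1.89 ± 0.163). Csf3r, the receptor of G-CSF, rose as well (log2 1.59 ± 0.282).

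Interferon-stimulated genes showed little net difference between iHPC and RPM of these mice. Of 46 tested, 4 were higher, 5 lower and 37 not called, shares near the background of 10.5% and 8.42%, with a median log2 fold change of -0.09. The abundant members Rsad2 and Ifitm3 were not called, with log2 intervals of -1.08 to 0.10 and -0.96 to 0.03. Individual genes did differ. Ifi27l2a, a mitochondrial interferon-induced gene, had 22, 54.3 and 83.5 CPM in iHPC, against 141, 277 and 652 CPM in RPM (log2 -2.49 ± 0.332). Slfn5 (log2 -3.73 ± 0.638), Ifi44 (log2 -3.72 ± 0.712) and Bst2, the gene of tetherin (log2 -1.26 ± 0.183), were lower, and Samd9l, an antiviral factor gene, was higher, with 242, 363 and 403 CPM in iHPC against 37.9, 121 and 223 CPM in RPM (log2 1.67 ± 0.268). In the interferon signalling list 5 of 28 genes were higher, 2 lower and 21 not called, against the same background shares. The higher ones included the IL-10 receptor chain Il10ra (log2 1.35 ± 0.219), the transcription factor Stat3 that it activates (log2 1.21 ± 0.197), and Socs3, the feedback inhibitor that Stat3 induces, with 51.3, 77.8 and 119.5 CPM in iHPC and 0, 5.52 and 21.1 CPM in RPM (log2 3.52 ± 0.515). Ifnlr1, the receptor chain of interferon lambda, had 18.3, 48.6 and 80.3 CPM in iHPC and 0 counts in RPM, at least 84.8-fold higher.

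Complement genes were mostly lower in iHPC. Complement proteins coat targets for engulfment, and 10 of 14 tested members were lower in iHPC. The 2 higher members, Itgam and Itgax, encode integrin chains of complement receptors, and Itgam is a gate gene. C6, a component of the membrane attack complex, held 0 counts in every iHPC library, against 323, 647 and 737 CPM in RPM, and was at least 1096-fold lower. C2 (log2 -6.28 ± 1.0) and C4b (log2 -4.76 ± 0.552), early components, were lower, as was Cd55, the gene of a factor that protects cells from complement, with 0, 7.46 and 28.5 CPM in iHPC and 87.6, 146 and 271 CPM in RPM (log2 -4.37 ± 0.573). The C1q genes stayed abundant in both. C1qa had 256, 597 and 659 CPM in iHPC, against 749, 1100.1 and 1493 CPM in RPM (log2 -1.09 ± 0.246), and C1qc was lower by a similar amount (log2 -0.90 ± 0.194). Matrix genes moved both ways. Col14a1, a collagen gene, held 1 count in all iHPC libraries and was 716 times lower by pooled counts (128 to 28332). Timp2, an inhibitor of metalloproteases, had 5.70, 23.1 and 76.9 CPM in iHPC and 207, 370.4 and 676 CPM in RPM (log2 -4.11 ± 0.351). By contrast Lox, which crosslinks collagen, had 47.8, 130.5 and 212 CPM in iHPC, against 0, 0 and 14.1 CPM in RPM (log2 7.27 ± 0.898). Its relative Loxl3 (log2 4.13 ± 0.528), the matrix metalloprotease gene Mmp14 (log2 3.0 ± 0.428) and Adam17, which sheds TNF (log2 1.56 ± 0.234), were higher. Adamdec1, a protease gene of macrophages, was among the most abundant higher genes, with 1158, 1442 and 1655 CPM in iHPC and 272, 416 and 578 CPM in RPM (log2 1.79 ± 0.185).

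Of 16 lysosomal proteases, edgeR called 8 lower in iHPC and 0 higher. At an unadjusted p under 0.05, 4 were higher by edgeR, and DESeq2 called 2 and limma 1 higher. Ctsd, the aspartic protease cathepsin D, had 308, 426 and 453 CPM in iHPC, against 912, 1353 and 2351 CPM in RPM (log2 -1.75 ± 0.199). Ctsb, cathepsin B, had 1253, 1628 and 1869.6 CPM in iHPC against 2058, 3035 and 4984 CPM in RPM (log2 -0.94 ± 0.175), and Ctsc, which activates granule proteases, had 502, 739.6 and 950.3 CPM in iHPC against 1483, 1683 and 2150.1 CPM in RPM (log2 -1.23 ± 0.167). Each separated the groups. Ctse, cathepsin E, was lower by more (log2 -3.75 ± 0.422), and Lgmn, the asparaginyl protease legumain (log2 -0.97 ± 0.148), and Ctsl, cathepsin L (log2 -0.92 ± 0.169), were lower too. Ctss, the cathepsin that processes antigen, was not called (log2 -0.15, 95% interval -0.48 to 0.19), at a read density near the ceiling noted above. Of 38 other lysosomal hydrolases and membrane proteins, 6 were lower, 2 higher and 30 not called. Over all genes tested 8.42% were lower and 10.5% higher, 18.9% called in all. The lower ones included Dnase2a, which digests the DNA of engulfed cells, with 62.3, 72.5 and 172 CPM in iHPC and 151, 223 and 336 CPM in RPM (log2 -1.43 ± 0.220), and Pla2g15, a lysosomal phospholipase (log2 -1.78 ± 0.252). Npc2, which carries cholesterol out of lysosomes, was lower too (log2 -1.09 ± 0.183). Ppt1, a thioesterase of lysosomes, was higher (log2 0.64 ± 0.158). Of 16 subunits of the proton pump that acidifies lysosomes 15 were not called and 1, Atp6v1g1, was lower (log2 -0.82 ± 0.192).

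Some genes of cholesterol export differed, while none of synthesis was called. Of 17 genes of cholesterol efflux and liver X receptor targets 4 were lower and 1 higher. Over all genes tested 8.42% were lower and 10.5% higher. The 19 efflux members summed to medians of 2624 CPM in iHPC and 4386 CPM in RPM. Synthesis and uptake genes stood at lower levels, with 23 members summing to medians of 645 and 638 CPM. Low levels limit the test, so the lists are not set against each other. None of the 15 tested genes of cholesterol synthesis and uptake was called. The count of 0 came from edgeR's quasi-likelihood test. At an unadjusted p under 0.05 it found 1 of them higher, and DESeq2 and limma called 0. Apoe, the apolipoprotein that accepts cholesterol, had 106, 345 and 692 CPM in iHPC, against 1057, 1779 and 3638 CPM in RPM (log2 -2.54 ± 0.364). Apoc1, from the same gene cluster, was nearly absent, with 0, 1.28 and 7.32 CPM in iHPC and 48.5, 244 and 404 CPM in RPM (log2 -7.36 ± 0.454). Abca1, the cholesterol pump, had 2.85, 14.3 and 40.3 CPM in iHPC, against 104, 149 and 241 CPM in RPM (log2 -3.50 ± 0.419). Its partner Abcg1 was not called (log2 -0.08, 95% interval -0.62 to 0.46). Pltp, the phospholipid transfer protein, was the higher member, with 36.6, 444 and 491 CPM in iHPC and 8.22, 50.1 and 118 CPM in RPM (log2 2.54 ± 0.444), and its low iHPC library was that of mouse 24380.

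Genes of eicosanoids, lipid mediators made from arachidonic acid, were mostly lower in iHPC. Of 15 tested genes 8 were lower and 1 higher. Ptgs1, cyclooxygenase 1, had 4.15, 6.37 and 14.8 CPM in iHPC, against 159, 471 and 606 CPM in RPM (log2 -5.92 ± 0.410). Tbxas1, which makes thromboxane, had 0, 6.81 and 20.9 CPM in iHPC against 163, 224 and 261 CPM in RPM (log2 -4.92 ± 0.474), and Pla2g2d, a secreted phospholipase, had 0, 0 and 11.3 CPM in iHPC against 71.5, 112 and 260.2 CPM in RPM (log2 -7.79 ± 0.824). The enzymes that remove mediators were also lower. Hpgd, which inactivates prostaglandins, had 7.32, 90.5 and 197 CPM in iHPC, against 833, 1012 and 1714 CPM in RPM (log2 -3.72 ± 0.325), and Pla2g7, which degrades platelet-activating factor, had 68.4, 73.1 and 113 CPM in iHPC against 338, 489.9 and 690.1 CPM in RPM (log2 -2.63 ± 0.162). Alox5ap, the protein that feeds 5-lipoxygenase, was higher, with 191, 351 and 428 CPM in iHPC and 35.6, 105 and 143 CPM in RPM (log2 1.84 ± 0.296). Extracellular nucleotides are danger signals, and several of the genes that clear them were lower. Enpp1 (log2 -4.50 ± 0.463), Entpd1, the gene of CD39 (log2 -1.86 ± 0.337), and Cd38 (log2 -1.56 ± 0.154), which break down nucleotides, and Ada, which clears adenosine (log2 -2.64 ± 0.375), were lower. The nucleotide receptor genes P2ry13 (log2 -2.58 ± 0.275) and P2ry14 (log2 1.43 ± 0.257) changed in opposite directions. In all, 7 of 17 tested purine genes were lower and 3 higher.

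Antioxidant genes were lower in 12 of 26 cases, with a median log2 fold change of -0.65, although Nfe2l2 was higher. Selenop, the selenium carrier, had 178, 219 and 249 CPM in iHPC, against 1148, 1659 and 2591 CPM in RPM (log2 -2.99 ± 0.185). Mgst1, a membrane glutathione transferase, had 18.1, 31.9 and 41.2 CPM in iHPC against 327, 461 and 589 CPM in RPM (log2 -3.92 ± 0.254), and Gclm, the regulatory subunit of glutathione synthesis, was lower by less (log2 -1.10 ± 0.254). Gstt1, a glutathione transferase, was the higher member, with 29.3, 115 and 173 CPM in iHPC and 0, 3.29 and 29.4 CPM in RPM (log2 4.58 ± 0.678). Of 19 genes of glycolysis and glucose uptake 3 were higher and 2 lower, against background shares of 10.5% and 8.42%. Eno3, the muscle-type enolase that marks Ly6C-low monocytes, had 271, 318 and 321 CPM in iHPC, against 8.41, 23.6 and 49.3 CPM in RPM (log2 3.56 ± 0.268), while Aldoa and Ldha were not called. Of 34 cell cycle genes 7 were lower and 2 higher, where 8.42% of all genes tested were lower and 10.5% higher. Birc5, a mitotic gene, had 105, 147 and 205 CPM in iHPC and 216, 330.1 and 419 CPM in RPM (log2 -1.11 ± 0.211), and the cyclin gene Ccnd2 was higher, with 791, 841 and 1091 CPM in iHPC against 408, 447 and 606 CPM in RPM (log2 0.95 ± 0.130). Erythroid markers were lower in the same libraries, and their part in the cell cycle counts was not tested. Bcl2, the survival gene, had 241, 264 and 373 CPM in iHPC, against 1.41, 18.9 and 53.8 CPM in RPM (log2 3.93 ± 0.523), and the pro-apoptotic gene Pmaip1 rose too (log2 2.24 ± 0.290).

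Most genes of the engulfment cytoskeleton were not called, although the called share was above the 18.9% over all genes tested. Cdc42, Rac1, Rac2 and Arpc2 were not called, with log2 intervals of -0.24 to 0.35, -0.57 to 0.07, 0.05 to 0.64 and -0.10 to 0.51. Of 27 genes 17 were not called, 3 were lower and 7 higher, where 8.42% of all genes tested were lower and 10.5% higher. The higher ones included the Rac activators Dock2 (log2 0.91 ± 0.176) and Elmo1 (log2 0.92 ± 0.182), the actin-binding protein gene Coro1a (log2 1.92 ± 0.368) and the myosin gene Myo1e (log2 2.89 ± 0.385). Dysf, the membrane repair protein dysferlin, held 0 counts in iHPC and was at least 94.6-fold lower, and Pak1, a kinase that Rac activates, was lower (log2 -4.00 ± 0.430). Of 13 genes of MHC class II presentation, 4 were lower and 1 higher, against the same shares over all genes. Their median log2 fold change was -0.57. The MHC class II chain genes H2-Ab1, H2-Aa and H2-Eb1 were not called, with medians of 676, 589.6 and 577 CPM in iHPC and 1124, 819 and 781 CPM in RPM. The genes of the PD-1 ligands were higher. Pdcd1lg2 (PD-L2) had 125, 169.7 and 190.4 CPM in iHPC, against 9.92, 18 and 43.7 CPM in RPM (log2 2.87 ± 0.321), and Cd274 (PD-L1) had 205, 253 and 291 CPM in iHPC against 24.6, 69.3 and 197 CPM in RPM (log2 1.67 ± 0.339). The co-stimulatory ligand gene Cd86 (log2 -1.10 ± 0.167) and Lgals9, the gene of galectin 9 (log2 -2.54 ± 0.323), were lower.

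Markers of Ly6C-low monocytes, which patrol vessels, were higher in iHPC. Of 24 Ly6C-low markers 16 were higher than in RPM and 0 lower, with a median log2 fold change of 1.84. Over all genes tested 10.5% were higher and 8.42% lower. The list was chosen with earlier results of these data known. Members such as Cx3cr1, Itgax and Nr4a1 are also counted in lists above. At an unadjusted p under 0.05, 1 member was lower by edgeR, and DESeq2 and limma called 0 lower. Dusp16, a phosphatase of stress kinases, had 639.7, 693 and 795 CPM in iHPC, against 2.82, 26.0 and 67.3 CPM in RPM (log2 4.88 ± 0.375). Stap1, an adaptor gene, had 625, 724 and 779.9 CPM in iHPC against 4.23, 34.1 and 97.0 CPM in RPM (log2 4.61 ± 0.474), and Spn, the gene of CD43, had 262, 301 and 831 CPM in iHPC against 11.9, 36.8 and 114 CPM in RPM (log2 3.23 ± 0.319). Treml4, a receptor that patrolling monocytes and red pulp macrophages share, was not called (log2 -0.33, 95% interval -0.65 to -0.01, adjusted p = 0.149). Of 5 Ly6C-high markers tested 1 was higher in iHPC and 2 were lower, with a median log2 fold change of -1.36. That median is the value of Ly6c2, a gene of the Ly6C gate, which was not called. The whole list summed to 364, 486 and 773 CPM in iHPC, against 706, 826 and 1134 CPM in RPM. Mgst1, a member described above with the antioxidant genes, made up a large part of the RPM sum. Ccr2, a member that was not tested, had 1.90, 11.3 and 23.6 CPM in iHPC and 0, 0.705 and 4.21 CPM in RPM, against a median of 1590.1 CPM in Ly6C-high monocytes of the same mice. Of the RPM markers, 15 of 19 tested were lower in iHPC, among them the gate genes Vcam1 and Adgre1. The one that was higher, Pecam1, is a gate gene as well. Gfra2, the receptor of neurturin, had 0, 0.435 and 2.85 CPM in iHPC, against 109.7, 249 and 490.2 CPM in RPM (log2 -8.05 ± 0.453).

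Transcripts of other cells were present in both sorted populations, and in bulk samples fewer cells of a type and less RNA per cell cannot be told apart. Phagocytes can also carry RNA of cells they have engulfed. Of 19 tested erythroid markers 12 were lower in iHPC and 0 higher. No member was higher at an unadjusted p under 0.05 by edgeR, nor called higher by DESeq2 or limma. Their summed level was 1591, 2720.3 and 4042 CPM in iHPC, against 4518, 5315 and 7167 CPM in RPM. Genes of erythroblasts were nearly absent from iHPC, such as Klf1, the erythroid transcription factor gene, with 0, 2.59 and 16.0 CPM in iHPC and 95.4, 148 and 231 CPM in RPM (log2 -5.38 ± 0.613), and Epor, the erythropoietin receptor gene, which was 188 times lower by pooled counts (64.0 to 916). Globin transcripts, the most abundant of mature red cells, were not called, Hbb-bs with a log2 interval of -0.94 to 0.03 and Hba-a1 of -1.08 to 0.02, and the globin copies may share reads. Whether red cell RNA bears on the heme gene differences was not tested.

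The plasma cell gene Jchain, which joins antibody chains, had 0, 24.9 and 40.8 CPM in iHPC, against 42.1, 1302 and 1698 CPM in RPM (log2 -5.98 ± 0.337), the lowest RPM library being the shallow one of mouse 24380. Plasma cell markers summed to 443, 848 and 950.3 CPM in iHPC, against 429, 2439.7 and 3071 CPM in RPM, and Xbp1, which macrophages also express, was not called. Of 7 members tested 2 were lower and edgeR called 0 higher, with a median log2 fold change of 0.13. At an unadjusted p under 0.05, 2 members were higher by edgeR, while DESeq2 called 2 higher and limma 0. Of 10 B cell markers 7 were lower in iHPC, among them Bank1, a B cell scaffold gene (log2 -1.29 ± 0.152). T and NK cell markers reached 2363 CPM in the RPM library of mouse 24107, against 693 CPM in its iHPC library, and 24.0 CPM in the RPM library of mouse 24261. That RPM library of mouse 24107 was also the one with the high Ccl3 level.

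Basophil and mast cell markers were abundant in iHPC and near 0 in RPM. Their summed level was 135, 3305 and 5169.6 CPM in iHPC, against 0, 15.5 and 24.6 CPM in RPM. Prss34, a protease gene of basophils, had 0, 1128 and 1641 CPM in iHPC, against 0, 0.397 and 5.48 CPM in RPM. Mcpt8, another, had 0.95, 892 and 2091 CPM in iHPC, against 0, 0 and 3.29 CPM in RPM. Fcer1a, the IgE receptor chain, had 0, 275 and 637 CPM in iHPC and 0, 0 and 2.74 CPM in RPM, and Hdc, which makes histamine, had 1.90, 86.1 and 158 CPM in iHPC and 0 counts in RPM. The lowest iHPC value of all 4 genes was that of mouse 24261, which kept them out of the test. In that library the sum was 135 CPM, of which Cd200r3 alone made up 132. Neutrophil markers were uneven, with sums of 164, 455 and 1725 CPM in iHPC and 54.9, 82.3 and 490.4 CPM in RPM, highest in the iHPC libraries of mice 24380 and 24261. The eosinophil granule gene Prg2 stood at 706 CPM in the iHPC library of mouse 24308 and at most 1.74 CPM in the other iHPC libraries. The part of these cells in the differences above was not tested.

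**Figure D5:**
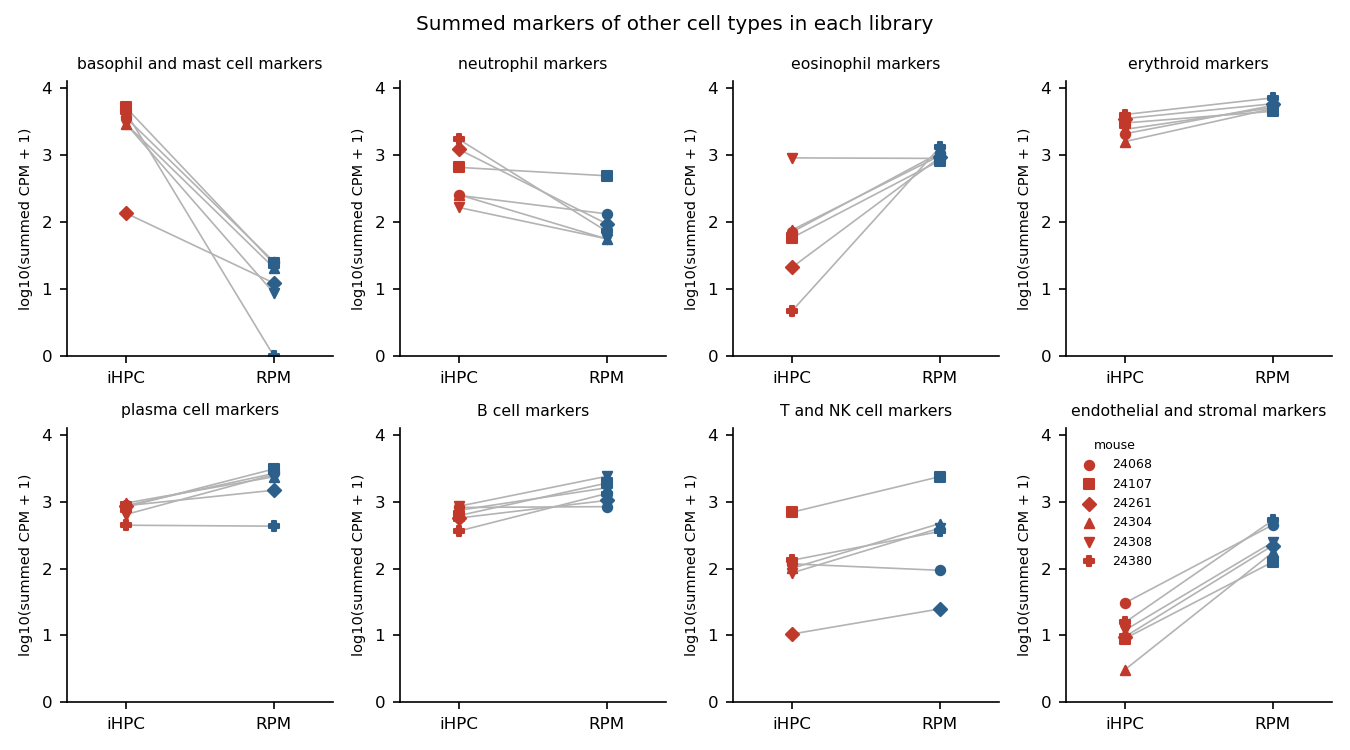
Summed CPM of marker lists of other cell types, log10(sum + 1), in each library, with iHPC left and RPM right and 1 line per mouse. Basophil markers are high in 5 iHPC libraries and low in that of mouse 24261, while the eosinophil sum of RPM comes mainly from Ccr3 and the endothelial sum from Stab2.

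Of 21 immediate early genes, which cell isolation can induce, 9 were higher in iHPC and 0 lower. None was lower at an unadjusted p under 0.05 by edgeR, nor called lower by DESeq2 or limma. Their sum was 2661, 2801 and 3907 CPM in iHPC, against 945, 1591 and 2179.9 CPM in RPM. Dusp2, a nuclear phosphatase (log2 2.75 ± 0.278), Atf3, a stress factor (log2 2.25 ± 0.300), and Ier2 (log2 1.84 ± 0.230) were higher. Several of these are NF-kB targets or Nr4a1 itself, and their part in the NF-kB and cytokine differences was not tested. Heat shock genes of the list, Hspa8 and Dnajb1, were not called (log2 -0.03 and -0.01).

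The largest changes included genes outside the lists. Among the 20 largest rises with at least 50 CPM and no overlap, Gria3, a glutamate receptor subunit best known from neurons, was 374 times higher by pooled counts (66.8 to 14799.6), with 33.9, 78.0 and 141 CPM in iHPC. Abcb1a, the drug efflux pump, had 82.0, 118 and 172 CPM in iHPC, against 0, 0 and 6.58 CPM in RPM (log2 6.67 ± 0.720). Slc5a5, the sodium-iodide symporter known from thyroid, had 125, 216 and 289 CPM in iHPC and 0, 2.69 and 13.7 CPM in RPM (log2 6.09 ± 0.612). The ubiquitin ligase genes Rnf128 (log2 6.17 ± 0.653) and Rnf144a (log2 5.99 ± 0.618) and the transcription factor gene Sox5 (log2 5.86 ± 0.926) were on the same list, along with Klra17, Ifnlr1, Itga6, Cd200r3, Cx3cr1, Lox, Negr1, Runx2, Klrb1b and Fndc1 and with Arhgef10l, Fnbp1l and Tex14. Of the 20 largest falls, Vstm4 held 0 counts in iHPC and was at least 341-fold lower, and Scamp5, a secretory carrier protein gene, was at least 143-fold lower. Fcna, ficolin A of the lectin pathway of complement, had 1.90, 4.07 and 9.26 CPM in iHPC, against 656, 1092 and 1678 CPM in RPM (log2 -7.88 ± 0.308). Mrap, an accessory protein of melanocortin receptors, had 0, 0 and 0.692 CPM in iHPC against 41.1, 61.6 and 146 CPM in RPM (487 times lower by pooled counts, 86.8 to 19283). Kcnj10, a potassium channel (log2 -7.44 ± 0.516), and Slco2b1, an organic anion transporter (log2 -7.57 ± 0.640), were lower as well.

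Per kilobase of exon, which allows levels of different genes to be compared, among called genes that changed at least 2-fold, those that iHPC gained most of were led by Il1b, with 700.3 CPM per kilobase in iHPC and 136 in RPM, and Adamdec1, with 587 CPM per kilobase in iHPC and 175 in RPM. Ccl4 had 582 CPM per kilobase in iHPC and 185 in RPM. Slamf9, a SLAM-family receptor, and Tmem176b, a cation channel, were on the same list of 10. The largest losses per kilobase were those of Hmox1, with 251 CPM per kilobase in iHPC and 1165 in RPM, and Fcna, with 3.51 CPM per kilobase in iHPC and 836 in RPM. Apoe had 167 CPM per kilobase in iHPC and 964 in RPM. The remaining genes of that list, all described above, were Clec4n, Ifi27l2a, Hpgd, C1qa, Cd5l, Selenop and Il18.

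The other sorted populations were not compared here, and their levels are given for some of these genes. Of the genes that iHPC held above RPM, Cx3cr1 had a median of 314 CPM in the 6 libraries of Ly6C-high monocytes of TLR7.1 mice and Arhgef10l one of 92.6 CPM. In the same monocytes Slc5a5, Lox, Negr1 and Adamdec1 had medians of 0, 0, 0 and 0 CPM, and Fcrl5 one of 1.90 CPM. Of the genes that RPM held above iHPC, C6, Vstm4 and Timd4 had medians of 0, 0 and 0 CPM in those monocytes. In RPM of wild-type mice the medians were 514, 178 and 225 CPM.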

How the data were processed

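RNA of 500 sorted cells per library was made into full-length cDNA with SMART-Seq v4 and Nextera XT, per the labels' protocols. The deposited table holds the authors' raw read counts per Ensembl gene, not normalised and not pooled. Per the submitters' processing notes, reads were handled with TopHat, Bowtie, HTSeq 0.4.1, SAMtools, Picard, FastQC and CASAVA 1.8.2 on NCBIM37, in no stated order. Strand, annotation and multi-copy read settings were not given in the sources used here. Amplification without molecular identifiers means that counts are not independent molecules, so counting intervals cover counting error only.

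The 6 iHPC and 6 RPM libraries of TLR7.1 mice were fitted with edgeR 4.0.16 (R 4.3.3), with terms for mouse and population, after filterByExpr and TMM scaling. The robust quasi-likelihood test was two-sided and p-values were adjusted over all 9079 genes kept. The mouse number in the titles ties both libraries to 1 spleen, which is why the mouse was a block. Deviations from the group means correlated by -0.09 to 0.25 between the libraries of a mouse. Whether sorted cells were handled apart within a mouse is not stated. Standard errors are the unshrunken log2 fold change over the square root of F, or, where F was under 0.1, the error from the fit's information matrix. A gene with 0 counts in a population was set against 3 counts over its 6 libraries, and one with 1 to 3 counts is given as a pooled ratio with an exact 95% interval. Levels are CPM on a TMM scale shared by 30 libraries. Genes that too few libraries held, such as those of basophils, were not tested. The fits were checked on simulated counts. Of 9079 genes, 100 were changed by a log2 of 1 and 100 by a log2 of 2. Of these, 17 and 70 were recovered. Beside the recovered genes there were 9 false calls and 0 calls in the wrong direction. In the data 1715 of 9079 genes were called, a larger share than was changed in the simulated counts. The adjusted p depends on that share. How many genes the fit misses in the data was not tested, and smaller changes may go uncalled.

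Members and gene lists were chosen with earlier results of these data known. Named were the gate genes and Tlr7, list members, the 20 largest rises and falls without overlap at 50 CPM or more, and the 10 largest differences per kilobase in each direction. For each list these were up to 4 members with the largest called changes from 20 CPM, the largest change against them, and abundant uncalled members, and other list members described were added after their values were seen. Alternatives were DESeq2 1.42.0, limma 3.58.1, other filters, scalings and samples, thinned counts, and leaving out mice. A few genes that this rule names are not reported here.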

Additional observations from a re-analysis of the deposited data

Results flagged for a closer look

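In 252 groups of 6 libraries whose levels are printed, 43 had 1 library whose gap to the next, as a share of the group's range, passed Dixon's 95% critical value (17.1%). Chance flags about 1 in 20 groups of normally distributed values. That rate does not hold for groups near 0 counts, such as Cd163, Mrap, Itga6 and Gria3, where 1 or 2 counts in a single library pass, so the share is not read against it. The values below are CPM of that library, and no explanation was tested.

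The iHPC library of mouse 24380, one of the shallow ones, was the highest of its group for Adgre1 (557), Apoc1 (7.32), Bcl2 (373), Dnase2a (172), Marco (14.6), Mrc1 (54.9), Nfkbia (967), Spn (831), Tgfbi (989) and Timp2 (76.9). The iHPC library of mouse 24068 was the highest for Cd163 (0.870), Il1a (4.35), Pla2g2d (11.3) and Stab2 (8.70), genes that the other iHPC libraries nearly lacked. In the iHPC library of mouse 24308 Il18 stood at 48.0 and the eosinophil gene Prg2 at 706, and eosinophil markers summed to 908. That of mouse 24107 was high in Ptgs1 (14.8) and in the sum of T and NK cell markers (693), that of mouse 24304 in Mrap (0.692), and that of mouse 24261 was low in Alox5ap (191).

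Among RPM libraries, that of mouse 24068 was the highest for Cd200r3 (13.7), Fcer1a (2.74), Hpgd (1714), Negr1 (54.8), Nr4a1 (142), Prss34 (5.48) and Slc5a5 (13.7). The RPM library of mouse 24107 was the highest for Ccl3 (391), Gstt1 (29.4) and Runx2 (12.7), and its T and NK cell markers summed to 2363 and its neutrophil markers to 490.4. The RPM library of mouse 24380 was high in Ccnd2 (606), Cp (319.6) and Gria3 (4.21), and low in Cd300e (46.3). Single RPM libraries were also high in Lox (14.1, mouse 24261), Abcb1a (6.58) and Klrb1b (15.4, both mouse 24304), and Cd55 (271), Itga6 (2.21) and Itgam (47.4, all mouse 24308).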

How the results depend on the processing

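All called genes kept the sign of their change in every alternative that tested them. The alternatives reuse all or some of the same libraries, so a change of sign was unlikely from the start. Without the replicate block, 908 genes were called higher and 845 lower, and 1548 of the 1715 genes called with it kept the call. With the 18 TLR7.1 libraries and the block, 2590 of 10334 genes tested were called (1405 higher and 1185 lower), and with all 30 libraries and no block 2993 of 11030 (1499 higher and 1494 lower). DESeq2's Wald test called 1295 genes higher and 995 lower, limma voom 1147 and 1118. Leaving out 1 mouse gave 1249 to 1504 calls, 674 to 788 of them higher and 575 to 722 lower. Of the genes called with all mice, the fewest kept the call without mouse 24261 (1210 of 1712 tested). The most kept it without mouse 24380 (1374 of 1707). Without both mice that have a shallow library, an alternative added after the data were seen, 675 genes were called higher and 646 lower, and 1150 of 1706 called genes kept the call. The median log2 fold change of all genes moved by -0.10 with 30 libraries and no block, by 0.12 without a filter on low counts and by -0.01 with DESeq2 size factors. The cause of these shifts was not tested.

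Depth limits the low genes. Counts thinned to the smallest library kept 1230 of 1383 calls, and with 6 mice a gene that missed the threshold may still differ.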
